A study of Mus musculus with 6 samples.

Results

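Hmox1, Ftl1, Fth1, Nfe2l2, Slc40a1, Blvrb, Txnrd1, Prdx1 and Gclm make up a set of 9 genes for heme breakdown, iron storage and defence against oxidants. They are 9 of the 22911 genes that RefSeq accessions name on the array, and each was found through the accession of its probes. The set was chosen by the measured difference of Hmox1 between C5a and untreated samples, which was already known to be large on these arrays. The values of that comparison therefore describe the set and do not test it. The samples were C5aR+ LysoDCs, which are lysozyme-expressing phagocytes that carry the receptor for the complement fragment C5a, from mouse Peyer's patches, the lymphoid tissue of the small intestine. CD11c+ cells were enriched on beads, sorted and cultured with CSF-1 and a factor the labels spell CFS-2. One group of 3 samples received no C5a (0 nM) and the other group of 3 received 100 nM recombinant C5a for 3 h. Nothing in the sources used here gives the strain, age or genotype of the mice, the culture time of the untreated cells or the origin of each replicate. The spread behind each p-value is therefore that of these samples, and it may be technical. The question was whether other genes controlled by Nfe2l2 move with Hmox1 after C5a.

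Heme oxygenase 1, the product of Hmox1, opens the heme ring and releases biliverdin, carbon monoxide and iron. The iron is held in ferritin, a shell built of heavy (Fth1) and light (Ftl1) chains, or leaves the cell through ferroportin (Slc40a1), while biliverdin reductase B (Blvrb) reduces breakdown products of heme. Nfe2l2, also called Nrf2, is a transcription factor that is kept low by Keap1 and, when released, binds antioxidant response elements together with small Maf proteins. Its classic targets include genes of the thioredoxin system (Txnrd1, Prdx1), of glutathione synthesis (Gclm) and both ferritin chains, and Bach1 represses Hmox1 at the same kind of element. In tissue phagocytes these genes are known for handling the iron of engulfed red cells.

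The core of the antioxidant response element, TGACNNNGC on either strand, was searched in RefSeq promoters (GRCm38.p6) that reach from 250 bases before to 50 bases after a gene's start. Of the 9 genes, all but Hmox1 and Slc40a1 had at least 1 promoter in this table, 11 promoters in all. Of these, 4 held the core, namely those of Nfe2l2, Gclm and Prdx1 and 1 of the 3 of Txnrd1. Among all promoters there, 12.4% held it, and 14% of all genes had at least 1 such promoter. The stretches around the 4 matches are shown because the core belongs to the element that Nfe2l2 binds. The matched bases are in capitals, 5′ to 3′ on the strand of the gene.
Nfe2l2: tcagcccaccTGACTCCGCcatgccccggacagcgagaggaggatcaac
Gclm: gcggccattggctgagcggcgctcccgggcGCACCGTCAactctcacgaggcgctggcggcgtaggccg
Prdx1: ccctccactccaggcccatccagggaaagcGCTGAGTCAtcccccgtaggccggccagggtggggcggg
Txnrd1: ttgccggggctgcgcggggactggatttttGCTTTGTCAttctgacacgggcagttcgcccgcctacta

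The Nfe2l2 stretch lies at chr2:75704865-75704913 on the minus strand, and the other 3 lie on the plus strand, at chr3:122245393-122245461 (Gclm), chr4:116685436-116685504 (Prdx1) and chr10:82859084-82859152 (Txnrd1). The match reads on the gene's own strand in Nfe2l2 and on the opposite strand in Gclm, Prdx1 and Txnrd1. It begins at position -240 in Nfe2l2, -134 in Gclm, -133 in Prdx1 and -92 in Txnrd1, counted from the gene's start. The promoters of Ftl1, Fth1 and Blvrb held no match in this window. A match is a string of letters and not a measured binding site.

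Between 2727 and 6959 of the 56605 probes exceeded background clearly on an array. Before scaling the 75th percentile of signal over probes detected on all arrays was 163, 460 and 109 on untreated 1 to 3 and 254, 377 and 154 on C5a 1 to 3. Of 18 markers of these cells and related phagocytes, 10 were well above background on every array, among them Lyz1, Lyz2, Itgax (CD11c), Csf1r and Cd74, whereas Cx3cr1, Mertk, Cd4 and Fcgr1 were so on no array. Detection of C5ar1, the gene of the C5a receptor, was partial, with 1 untreated array and 2 C5a arrays. The summed scaled level of the 14 markers that were tested ran from 71.2 to 87.1 in untreated and from 56.7 to 71.3 in C5a samples. This sum adds unlogged levels over probes, so the brightest probes weigh most in it. Taken singly, 6 of the 14 were higher and 8 lower with C5a, with a median log2 difference of -0.07. None of the 10 measurable erythroid, 10 epithelial or 7 stromal and endothelial markers was well above background on any array. Of 9 measurable B cell, 7 T cell, 7 neutrophil and 8 other dendritic cell markers, 1, 0, 1 and 2 were tested, namely Cd79b, Csf3r, Siglech and Ccr7. The part of cell composition in the results below was not tested, and in such samples fewer cells of a type and less RNA per cell cannot be told apart.

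Detection differed among the 9 genes. They were represented by 13 probes of 1 spot each, of which 10 probes for 6 genes met the detection minimum of 3 arrays and entered the comparison. Slc40a1 and Blvrb were well above background on 0 arrays and Gclm on C5a 2 alone, so these 3 genes were not tested. Counted by array, 4, 6 and 6 of the 9 genes were detected on untreated 1 to 3 and 6, 7 and 6 on C5a 1 to 3. On untreated 1, where the fewest were detected, Hmox1 and Nfe2l2 were not, while Fth1, Ftl1, Prdx1 and Txnrd1 were detected on all 6 arrays.

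**Figure D1:**
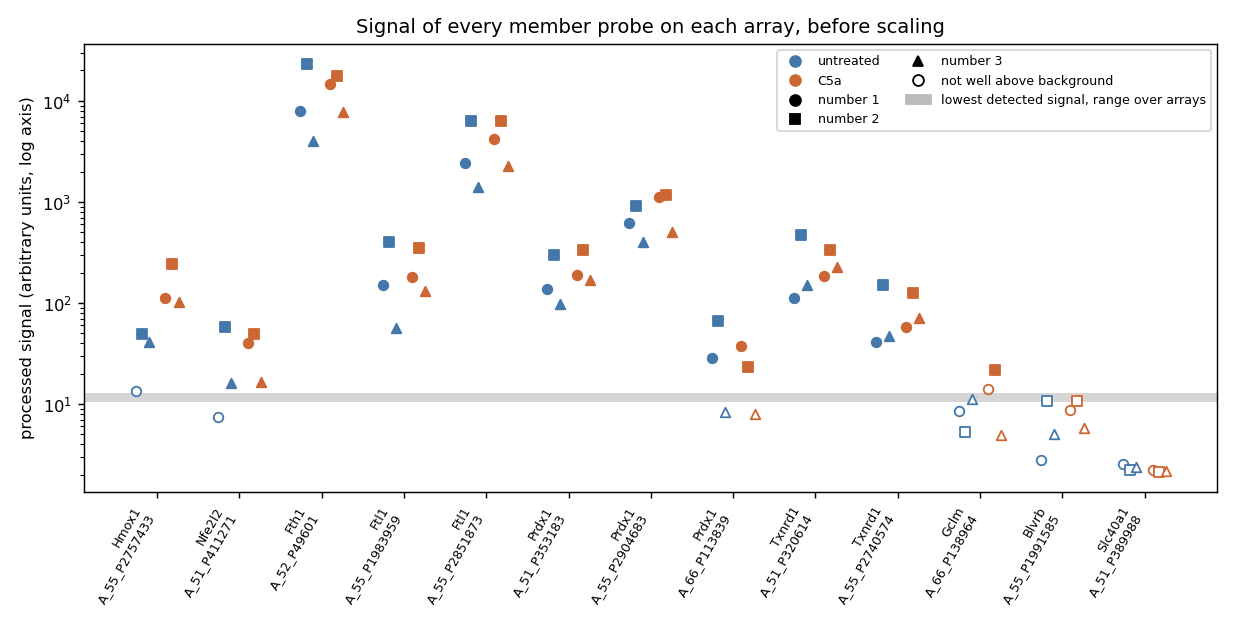
Processed signal (log axis) of all 13 probes of the 9 genes on each array before scaling, with untreated arrays in blue, C5a arrays in orange and a marker shape per replicate number; open markers are not well above background and the grey band spans the lowest detected signal of the 6 arrays. The ferritin probes lie far above the band, Hmox1 on untreated 1 is open at 13.5, and the probes of Blvrb and Slc40a1 are open on every array.

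In the comparison over all genes, none of the set was called. With limma and Benjamini-Hochberg adjustment, 0 of 4488 genes (0%) passed at an adjusted p under 0.05, where 105 (2.34%) had an unadjusted p under 0.05, and the lowest adjusted p among the 6 tested genes of the set was 0.999. Their differences, C5a minus untreated on the log2 scale, ran from -0.01 for Txnrd1 to 1.93 for Hmox1 with a median of 0.22, beside a median of 0.04 over all 4488 genes. The difference was above 0 for 5 of the 6, as it was for 54.9% of all genes. Of the 5 genes other than Hmox1, the largest difference was 0.46, and the uppermost limit of their 95% intervals was 1.60. Scaled levels below are log2 signals less each array's 75th percentile over the 2370 probes detected on all arrays, so that levels are comparable between samples for 1 probe but not between probes.

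Hmox1 stood apart from the rest of the set. Its probe (A_55_P2757433) gave signals of 13.5, 49.6 and 41.3 on untreated 1 to 3 and of 111, 243 and 102 on C5a 1 to 3, before any scaling. Each C5a signal exceeded every untreated signal. On the scaled log2 axis untreated 1 to 3 lay at -3.60, -3.21 and -1.40, and C5a 1 to 3 at -1.19, -0.63 and -0.59, so the groups did not overlap here either, although the gap between untreated 3 and C5a 1 was small. Groups did not overlap with C5a higher for 151 of 4488 genes (3.36%) and with C5a lower for 2.32%. The mean was -0.80 ± 0.34 (SD, n = 3) with C5a against -2.74 ± 1.18 (SD, n = 3) without it, a difference of 1.93 (SE 0.58), or 3.82-fold. Only 4 of the 4488 genes had a larger positive difference. The difference was 2.41, 2.58 and 0.81 between arrays of replicate numbers 1, 2 and 3, and a positive difference for all 3 numbers was found for 14.4% of genes. On untreated 1 the probe was not well above background, its signal of 13.5 lying just above the lowest detected signal of that array, 12.8. Leaving out that array gave a difference of 1.50, and leaving out untreated 3, the highest of its group, gave 2.60. With normexp background correction and quantile normalization together, the difference was 1.00. Hmox2, the gene of the constitutive heme oxygenase, was well above background on 2 arrays of each group and differed by -0.13 (SE 0.42).

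**Figure D2:**
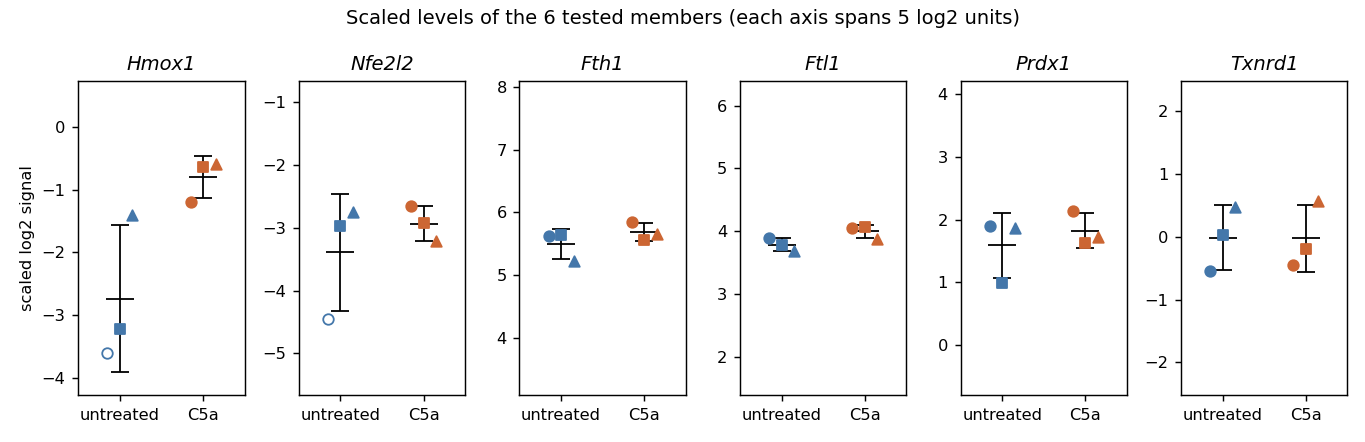
Scaled log2 signal of the 6 tested genes of the set in untreated and C5a samples, 1 marker per array (circle, square and triangle for numbers 1, 2 and 3; open where not well above background), with bars for the mean and SD of 3 arrays; each vertical axis covers the same number of log2 units. The groups are apart for Hmox1, at -2.74 and -0.80 on average, and overlap for the other 5 genes.

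The ferritin chains were detected on every array, with levels that lay close together after scaling. Fth1, the heavy chain with the iron-oxidising site, had signals of 8023, 22995 and 4054 on untreated 1 to 3 and of 14648, 17774 and 7778 on C5a 1 to 3, and scaled levels of 5.62, 5.64 and 5.22 against 5.85, 5.56 and 5.66. After scaling the groups overlapped, with C5a 2 below untreated 1 and 2. The difference was 0.20 (SE 0.26, 95% interval -0.43 to 0.82), and its sign turned with quantile normalization (-0.45) and with normexp and quantile normalization (-0.62). Ftl1, the light chain, had scaled levels of 3.89, 3.78 and 3.69 on untreated 1 to 3 and of 4.04, 4.06 and 3.88 on C5a 1 to 3 by its brighter probe (A_55_P2851873). C5a 3 lay just below untreated 1, and the other C5a levels were above all untreated ones. Its difference of 0.21 (SE 0.24, 95% interval -0.36 to 0.78) was small but alike in the 3 replicate numbers, at 0.15, 0.28 and 0.19. It was positive in all 21 alternatives, of which some, such as the replicate block, cannot change the difference. The dimmer Ftl1 probe (A_55_P1983959) differed by 0.16 (SE 0.32), with -0.35, 0.12 and 0.71 for numbers 1, 2 and 3. Ferritin genes have near-identical copies in the genome, and whether the probes also bind transcripts of these was not tested.

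Nfe2l2 itself was dim. Its scaled levels were -4.46, -2.97 and -2.74 on untreated 1 to 3 and -2.65, -2.92 and -3.22 on C5a 1 to 3. Apart from untreated 1, where the probe was not well above background, the levels of both groups lay within the same range. The difference of 0.46 (SE 0.48, 95% interval -0.68 to 1.60) rested on that array: without untreated 1 it was -0.07, and without both arrays of number 1 it was -0.21. Of 15 genes in a list of Nfe2l2 and its regulators, 8 were tested, 6 with a positive and 2 with a negative difference, and 0 passed. Bach1, the repressor of Hmox1, was detected on 1 untreated array and all 3 C5a arrays and differed by 0.35 (SE 0.41), with differences of 1.51, -0.22 and -0.25 for numbers 1, 2 and 3. Keap1, the inhibitor of Nfe2l2, was well above background on 1 array of each group and was not tested. Mafg, a small Maf partner, and Sqstm1, an autophagy receptor that binds Keap1, were detected on every array and had differences of 0.08 and 0.01.

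The thioredoxin genes of the set differed little between the groups. Prdx1, a peroxiredoxin that reduces hydrogen peroxide, had scaled levels of 1.91, 0.99 and 1.87 on untreated 1 to 3 and of 2.13, 1.62 and 1.72 on C5a 1 to 3 by its brightest probe (A_55_P2904683). Untreated 2 was low and the other 5 arrays lay close together. The difference was 0.23 (SE 0.35, 95% interval -0.58 to 1.05) and turned to -0.07 without untreated 2. A further Prdx1 probe (A_51_P353183) differed by 0.18 (SE 0.29), whereas the dimmest (A_66_P113839), detected on 2 arrays of each group, differed by -0.67 (SE 0.50), and the mean of the 3 probes differed by -0.09. Txnrd1, the selenoenzyme that keeps thioredoxin reduced, had scaled levels of -0.55, 0.03 and 0.48 on untreated 1 to 3 and of -0.45, -0.19 and 0.58 on C5a 1 to 3. The groups covered the same range and differed by -0.01 (SE 0.40, 95% interval -0.95 to 0.93), and the second Txnrd1 probe also differed by -0.01 (SE 0.36). These intervals leave room for changes of some size in either direction.

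The remaining 3 genes gave little or no signal. Gclm, the regulatory subunit of the first enzyme of glutathione synthesis, had signals of 8.50, 5.34 and 11.2 on untreated 1 to 3 and of 14.1, 21.7 and 4.98 on C5a 1 to 3. It was well above background on C5a 2 alone, and no fold is given since the mean C5a level lay below the untreated detection limit. Blvrb signals ran from 2.77 to 10.7 and Slc40a1 signals from 2.15 to 2.53 over the 6 arrays, none well above background. The probe of Slc40a1, the iron exporter, was thus dimmer than any detected probe on every array, and no direction can be given for these genes.

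Txnrd1 lay at similar levels on the untreated and the C5a array of each replicate number. Averaged over both arrays of a number, its scaled level was -0.50, -0.08 and 0.53 for numbers 1, 2 and 3, while its differences between C5a and untreated arrays of the same number were 0.09, -0.22 and 0.10. Sqstm1 showed the same layout at 1.95, 2.47 and 3.13 on untreated 1 to 3 and 1.92, 2.41 and 3.26 on C5a 1 to 3, as did Slc7a11, the cystine transporter, at -3.51, -3.32 and -2.34 and at -3.54, -3.39 and -2.54. In all 3 genes both arrays of number 3 were the highest. Before scaling the array of number 3 was the dimmest of each group, with a 75th percentile of 109 in untreated and 154 in C5a samples. A part of array brightness in this layout was not tested. A range between the means of the 3 numbers wider than the C5a difference is common here. It was found for 3884 of the 4488 genes tested (86.5%), so it is no trait of these 3. For Hmox1 untreated 3 was likewise the highest of its group. These genes were picked out after their values were seen, and an effect of the replicate number on them was not tested. The labels do not say what the numbers stand for.

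**Figure D3:**
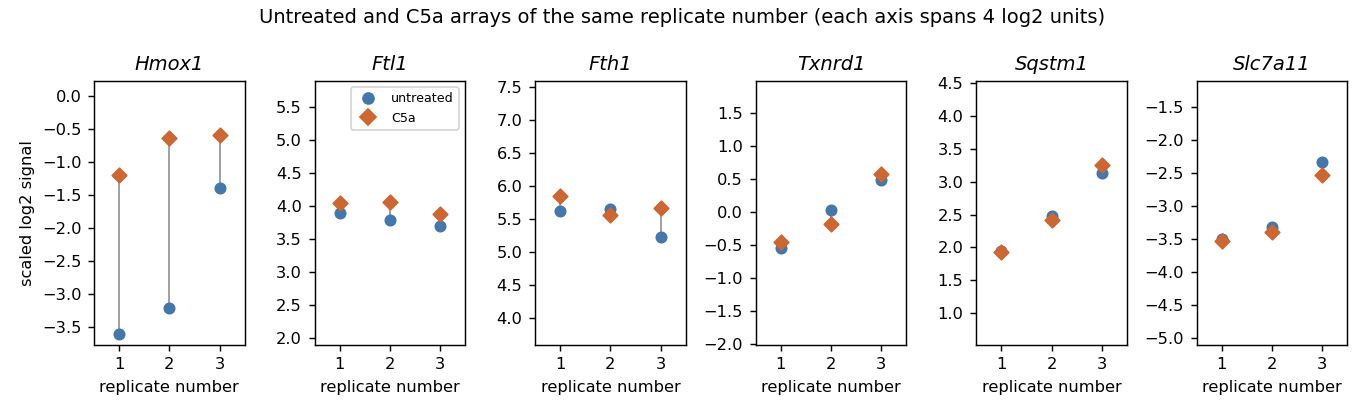
Scaled log2 signal of 4 genes of the set and of Sqstm1 and Slc7a11 by replicate number, with the untreated array (blue circle) joined to the C5a array of the same number (orange diamond); each vertical axis covers the same number of log2 units. Hmox1 is higher on the C5a array for each number, by 2.41, 2.58 and 0.81, whereas the joined markers of Txnrd1, Sqstm1 and Slc7a11 nearly coincide and are highest for number 3.

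The ratio of Hmox1 to another gene on the same array does not depend on the factor by which an array is scaled. The log2 ratio of Hmox1 to Fth1 was higher with C5a by 2.18, 2.66 and 0.37 for numbers 1, 2 and 3, and that to Ftl1 by 2.26, 2.30 and 0.62. Relative to Prdx1 the differences were 2.18, 1.95 and 0.96, relative to Txnrd1 2.31, 2.80 and 0.71, and relative to Nfe2l2 0.60, 2.53 and 1.28. All 15 differences were positive, which restates the large difference for which Hmox1 was chosen, and they were smallest for number 3 except against Nfe2l2.

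The wider list of Nfe2l2 targets holds 40 genes, of which 39 had a probe, 22 were tested and 13 were well above background on no array. Of the 22, 0 passed, 11 had a positive and 11 a negative difference, and their median was 0.00, beside 0.04 over all genes. Without the genes of the set, 6 of 16 differences were positive and 10 negative, from -0.55 to 0.29. Of these 16, C5a was higher for all 3 replicate numbers in 0 and lower for all 3 in 3, beside 14.4% and 10.8% of all genes. Nqo1, a quinone reductase widely used as a readout of Nfe2l2, was well above background on 0 arrays, and Gclc, the catalytic partner of Gclm, on 1 C5a array. Srxn1, which restores overoxidised peroxiredoxins, was at -1.55, -0.50 and -0.93 on untreated 1 to 3 and at -0.56, -0.56 and -0.99 on C5a 1 to 3. Only untreated 1 was low, and the difference of 0.29 (SE 0.35) came from number 1, at 0.99, against -0.06 for both other numbers. Slc7a11 differed by -0.10 (SE 0.43), thioredoxin itself (Txn1) by -0.06 (SE 0.28) and Sqstm1 by 0.01 (SE 0.45), with -0.14 (SE 0.46) at another Sqstm1 probe. Taldo1 and Pgd, both enzymes of the pentose phosphate pathway that supplies NADPH, differed by -0.04 (SE 0.27) and -0.14 (SE 0.30), and another probe of Taldo1 by 0.54 (SE 0.64).

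Of 47 iron and heme genes, all had a probe, 15 were tested and 25 were well above background on no array. None of the 15 passed. Their differences were positive for 10 and negative for 5, with a median of 0.29. Without Hmox1, Fth1 and Ftl1, 7 were positive and 5 negative. Of these 12, C5a was higher for all 3 replicate numbers in 5 and lower for all 3 in 2, beside 14.4% and 10.8% of all genes, and the list was chosen with results of these data known. Trf, which encodes transferrin, the iron carrier of plasma, was at -0.89, -0.53 and -0.53 on untreated 1 to 3 and at -0.34, 0.00 and -0.20 on C5a 1 to 3. The groups did not overlap, and the difference was 0.47 (SE 0.26, 95% interval -0.15 to 1.09), with another Trf probe at 0.79 (SE 0.58). Pcbp1 and Pcbp2, RNA-binding proteins that also act as iron chaperones to ferritin, differed by 0.35 (SE 0.38) and 0.38 (SE 0.30). Ncoa4, the receptor that sends ferritin to the lysosome, differed by 0.29 (SE 0.26), while its other probe differed by -0.15 (SE 0.38). Alas1, the first enzyme of heme synthesis, differed by -0.10 (SE 0.28). Tfrc, the transferrin receptor, and Blvra, the main biliverdin reductase, were well above background on 0 arrays.

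Of 47 redox enzymes, 22 were tested, with 12 positive and 10 negative differences, a median of 0.04 and no call. Without Prdx1 and Txnrd1, C5a was higher for all 3 replicate numbers in 4 of 20 and lower for all 3 in 1, beside 14.4% and 10.8% of all genes. Sod1, the cytosolic superoxide dismutase, had a difference of 0.00 (SE 0.27) and the glutathione peroxidase gene Gpx1 one of -0.09 (SE 0.60). Glrx2, a glutaredoxin, differed by -0.20 (SE 0.34) at a bright probe with mean scaled levels of 5.25 in untreated and 5.05 in C5a samples. Its other probe was well above background on 1 array, so the value rests on 1 probe. Whether the bright probe measures Glrx2 alone was not tested. Msrb1, a methionine sulfoxide reductase, differed by 0.35 (SE 0.63), with untreated 3 low at -1.83.

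**Figure D4:**
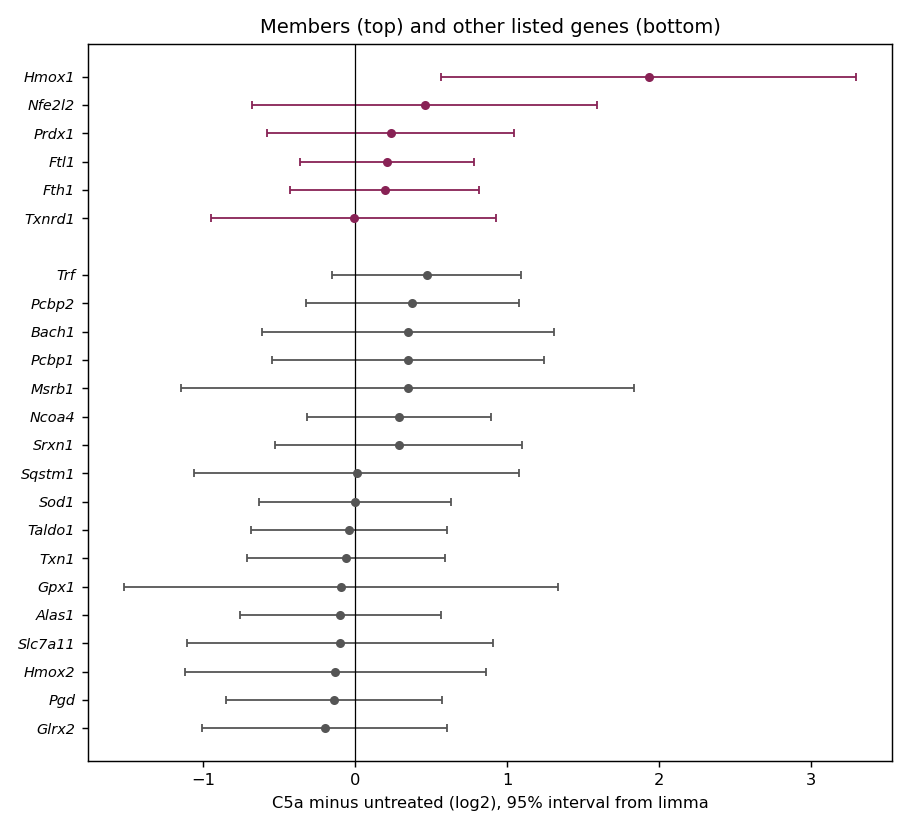
Difference between C5a and untreated samples on the log2 scale, with 95% intervals from limma, for the 6 tested genes of the set (top) and 17 further named genes of the lists (bottom). Hmox1 lies at 1.93, and the other genes lie between -0.20 (Glrx2) and 0.47 (Trf) with intervals that include 0; since Hmox1 was chosen for this difference, its interval is not a test.

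The other genes of the set were not among those most like Hmox1 over the 6 arrays. Pearson's r with Hmox1 was 0.633 for Nfe2l2, 0.437 for Txnrd1, 0.374 for Ftl1, 0.347 for Prdx1 and -0.052 for Fth1. Their ranks were 271st or lower among 3275 named genes. With scaling over all probes r was 0.709, 0.593, 0.500, 0.578 and 0.422 in the same order of genes, so these values move with the scaling. The 5 most alike were Foxp4 (0.999), a forkhead transcription factor, Mtdh (0.978), Actn4 (0.944), an actin-crosslinking alpha-actinin, Atp2b1 (0.939), a calcium pump of the plasma membrane, and Gabarapl2 (0.920), a ubiquitin-like protein of autophagosomes. These values over 6 arrays that share scaling and brightness are a description, and 10 named genes had an r above 0.9. Foxp4 was at -5.49, -5.29 and -4.12 on untreated 1 to 3 and at -4.05, -3.68 and -3.61 on C5a 1 to 3, and it was well above background on 0 untreated arrays and all 3 C5a arrays, so its untreated levels lie below detection and its r rests in part on them and on the difference for which Hmox1 was chosen. With scaling over all probes Foxp4 stayed first, while Mtdh was 211th, Actn4 19th, Atp2b1 13th and Gabarapl2 34th. Mtdh was well above background on 6 arrays, Actn4 and Gabarapl2 on 4 and Atp2b1 on 3. The groups overlapped for Atp2b1.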

How the data were processed

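Gene expression was measured on 6 one-colour (Cy3) Agilent arrays, 1 per sample and all on 1 slide, 3 untreated and 3 C5a. Per the file headers, the authors' files came from Agilent Feature Extraction and hold a processed intensity per spot, background-subtracted within the array and not scaled between arrays, beside other columns of 0 or 1 flags for detection and outliers. The deposited series table holds log2 values, and 99.0% of its differences between arrays lay within 0.01 of those found after scaling log2 signal by the all-probe 75th percentile. Its baseline per probe stays unknown.

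Control spots were left out, and outlier spots were left out where the probe had other spots without that flag. A probe whose spots were all flagged as outliers was kept, so no probe of the set lost its spot. Signals were scaled by the 75th percentile over the 2370 probes detected on all arrays, since most probes were dark. Probes well above background on at least 3 arrays were kept, with the brightest probe per gene (4488 genes, 3276 named through RefSeq accessions of GRCm38.p6). Groups were compared with limma 3.58.1 in R 4.3.3, and p-values were adjusted by Benjamini-Hochberg. The number of arrays limits precision: the median SE of a difference was 0.37. The fit was checked on simulated data with noise that was independent between arrays. That check asked only whether the size of planted changes was recovered, and it does not bear on the absence of calls. No saturated spot was flagged.

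Replicate numbers come from the labels. Deviations from the group means correlated at 0.211, 0.269 and 0.384 between arrays of the same number 1, 2 and 3. Between arrays of unlike numbers the correlations ran from -0.252 to 0.071. The labels do not say whether the numbers pair the samples. All SEs and intervals above come from the fit without the numbers, and the replicate block was an alternative. With the block as a fixed term the SE was 0.42 against 0.58 for Hmox1 and 0.22 against 0.40 for Txnrd1. For Nfe2l2 it was 0.49 against 0.48.

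The members and lists were chosen with earlier results of these data known. Named were all 9 members, per list the 5 other tested genes with the highest mean signal, Keap1, Bach1, Nqo1, Gclc, Slc7a11, Srxn1, Hmox2, Tfrc and Blvra, and the 5 named genes most correlated with Hmox1. Mafg and the cell markers stand outside this rule and were named after their values were seen. No genome was used, and the array design cites mm9, so coordinates are given only for RefSeq promoter sequences.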

Additional observations from a re-analysis of the deposited data

How the results depend on the processing

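The count of called genes was 0 in all alternatives that kept a filter on dim probes, with 0 to 0 over the fits that left out 1 array or both arrays of a number (the latter chosen after seeing the data). The replicate block, as a fixed or a random term, gave 0 calls and changed no other call. Without the filter, limma called 47 genes, 9 higher and 38 lower, 42 of them well above background on at most 1 array. Among these was 1 gene of the Nfe2l2 target list, Gsta4 (named after its values were seen), well above background on 1 array, and 0 of the 9 members. Hmox1 was positive in its 20 alternatives, from 1.00 to 2.60, and Ftl1 in its 21, from 0.16 to 0.57. Some alternatives, such as the replicate block, change the SE and not the difference. With the array's row on the slide as a covariate, Hmox1 differed by 1.55 (SE 0.85), against 1.93 (SE 0.58) without it. Nfe2l2 then differed by 0.74 (SE 0.72), Prdx1 by 0.54 (SE 0.50), Fth1 by 0.36 (SE 0.39) and Ftl1 by 0.26 (SE 0.37). Txnrd1 moved from -0.01 to -0.44 (SE 0.55). Each of these SEs was larger than without the row. Whether slide position plays a part was not tested. Since the Hmox1 groups did not overlap, leaving out arrays could not turn its sign. The sign turned in 2 of 21 alternatives for Fth1 and Prdx1, 2 of 20 for Nfe2l2 and 8 of 21 for Txnrd1. Scaling over all probes moved the median of all genes by 0.36 and the share of positive differences from 54.9% to 86.8%. Quantile normalization gave 62.8%, and normexp with quantile normalization 62.1%. Relative to the median of all genes Hmox1 was at 1.90 with either scaling. That follows by construction, since each scaling shifts all genes of an array alike, and it is no check of Hmox1. Hmox1 and Nfe2l2 were not on all arrays above background, so the filter on all 6 arrays gave them no value.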

Other observations

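Apart from Hmox1 and Trf, the groups did not overlap for 2 genes of the iron and regulator lists, both named after their values were seen. Aco1, whose protein serves as an aconitase or as an iron-regulatory RNA-binding protein, was at -6.00, -4.72 and -5.31 on untreated 1 to 3 and at -4.47, -4.27 and -4.65 on C5a 1 to 3. Its difference was 0.88 (SE 0.37), with C5a higher for each replicate number, and the probe was detected on 1 untreated array and 2 C5a arrays. Dpp3, a peptidase that can bind Keap1, was at -3.56, -3.75 and -3.56 on untreated 1 to 3 and at -4.00, -5.36 and -4.31 on C5a 1 to 3. Its difference was -0.93 (SE 0.39), and it was detected on 2 untreated arrays and 1 C5a array. For both genes the levels on the other arrays lay below detection, and the lack of overlap rests in part on them. Neither passed in limma with Benjamini-Hochberg adjustment (adjusted p = 0.999 for both), and groups that did not overlap were found for 3.36% of genes with C5a higher and 2.32% with C5a lower.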
